A study of Mus musculus with 8 samples.

Results

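Macrophages and related myeloid cells were read in mouse hearts through 36 marker genes: 9 of the lineage, 6 used for resident macrophages, 9 of recruited or scavenging macrophages, 3 chains of C1q, 6 Fc receptors, adaptors and related receptors, and 3 lysosomal or oxidase genes. A gene was taken where a probe set, the group of probes that an array summarises into a value, was annotated with its symbol and no other. All 36 had exactly 1 such probe set, among 19938 genes measured on Affymetrix arrays. The mice were 9 weeks old on a C57Bl6 background, and each of 4 groups held 2 animals with 1 array each. Homozygous mice carrying Gata4 S105A, a serine-to-alanine substitution in the heart transcription factor GATA4, received PE (arrays 7 and 8) or were left untreated (arrays 5 and 6). Wild-type (WT) mice likewise received PE (arrays 3 and 4) or were untreated (arrays 1 and 2). PE, which the labels write out as pseudophedrine and use as a cardiac stress, came from a subcutaneous osmotic pump at a rate of 100 mg/kg/day over 5 days. PE is also a common abbreviation of phenylephrine, another adrenergic agent, and the files do not settle which compound was given. The labels give the mutant genotype for the animal and do not say which cells carried it. Their protocol names saline as the alternative to PE, whereas the titles say untreated. One label field calls the tissue whole heart ventricle and the titles whole heart, and the mean level of 7 heart muscle genes was 13.4 to 13.5 log2 units in every array.

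The healthy heart holds resident macrophages that persist by self-renewal, among them a population marked by LYVE1, TIMD4, FOLR2 and CD163. Under stress, monocytes that carry the chemokine receptor CCR2 enter from the blood and become macrophages, which clear debris through scavenger, Fc and C-type lectin receptors and can express TREM2, GPNMB and galectin-3. PU.1, encoded by Spi1, is the transcription factor that sets the myeloid programme, and CSF1R is the receptor through which these cells receive their survival signal.

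Promoter sequences from RefSeq (GRCm38.p6) are given for members that were higher with PE and for some that were not, because PU.1 binds purine-rich DNA with the core GAGGAA. The window ran from 250 bases before to 50 bases after a gene's start, and 27 of the 36 members matched a window. The core, searched on both strands, was in a window of 18 of these 27 genes (66.7%), and in 31.3% of the 27025 genes with windows. The longer GAGGAAGT, which contains the core, was in 5 of the 27 (18.5%) and in 3.69% of all. A match is a run of letters and was not tested as a binding site. The lines that follow are written 5′ to 3′ on the gene's strand, with capitals for matches to either motif on either strand. The first 4 genes hold the longer motif, and Mpeg1, Cd163 and Timd4 hold neither.
Ctss (chr3:95526536-95526835, plus strand): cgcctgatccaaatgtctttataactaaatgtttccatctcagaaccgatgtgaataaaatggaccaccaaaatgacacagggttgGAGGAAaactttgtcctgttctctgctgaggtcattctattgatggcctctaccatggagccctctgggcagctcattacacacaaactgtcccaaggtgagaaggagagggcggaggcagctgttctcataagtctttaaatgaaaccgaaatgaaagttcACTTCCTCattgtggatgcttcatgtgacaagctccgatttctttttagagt
Cd53 (chr3:106790100-106790399, minus strand): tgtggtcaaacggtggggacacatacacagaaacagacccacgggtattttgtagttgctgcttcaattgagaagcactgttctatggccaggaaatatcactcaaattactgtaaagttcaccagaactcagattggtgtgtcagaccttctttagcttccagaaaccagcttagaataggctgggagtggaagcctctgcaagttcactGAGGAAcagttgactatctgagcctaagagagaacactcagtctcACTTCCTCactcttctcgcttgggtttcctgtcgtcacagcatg
C1qc (chr4:136892865-136893164, minus strand): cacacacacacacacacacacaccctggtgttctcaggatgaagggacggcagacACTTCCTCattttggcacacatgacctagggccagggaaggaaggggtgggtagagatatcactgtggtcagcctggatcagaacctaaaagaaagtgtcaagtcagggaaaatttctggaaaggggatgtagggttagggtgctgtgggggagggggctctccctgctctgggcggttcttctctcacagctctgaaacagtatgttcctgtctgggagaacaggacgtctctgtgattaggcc
Cd300ld (chr11:114989837-114990136, minus strand): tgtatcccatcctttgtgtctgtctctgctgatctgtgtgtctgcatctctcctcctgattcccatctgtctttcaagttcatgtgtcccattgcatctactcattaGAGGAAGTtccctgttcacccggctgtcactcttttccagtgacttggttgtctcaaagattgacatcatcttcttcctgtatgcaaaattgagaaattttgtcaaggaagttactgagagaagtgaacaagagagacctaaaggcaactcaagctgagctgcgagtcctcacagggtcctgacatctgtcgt
Mpeg1 (chr19:12460520-12460819, plus strand): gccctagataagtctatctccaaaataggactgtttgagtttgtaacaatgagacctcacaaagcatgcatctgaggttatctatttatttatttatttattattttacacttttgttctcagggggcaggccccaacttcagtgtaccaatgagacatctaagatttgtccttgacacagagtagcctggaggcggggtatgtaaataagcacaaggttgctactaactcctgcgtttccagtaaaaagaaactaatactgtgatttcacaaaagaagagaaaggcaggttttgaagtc
Cd163 (chr6:124304401-124304700, plus strand): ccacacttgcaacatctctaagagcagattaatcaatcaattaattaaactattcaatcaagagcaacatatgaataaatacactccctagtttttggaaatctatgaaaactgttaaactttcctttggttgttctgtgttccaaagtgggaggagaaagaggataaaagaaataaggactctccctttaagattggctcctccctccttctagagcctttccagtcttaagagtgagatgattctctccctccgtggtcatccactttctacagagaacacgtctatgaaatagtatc
Timd4 (chr11:46810549-46810848, plus strand): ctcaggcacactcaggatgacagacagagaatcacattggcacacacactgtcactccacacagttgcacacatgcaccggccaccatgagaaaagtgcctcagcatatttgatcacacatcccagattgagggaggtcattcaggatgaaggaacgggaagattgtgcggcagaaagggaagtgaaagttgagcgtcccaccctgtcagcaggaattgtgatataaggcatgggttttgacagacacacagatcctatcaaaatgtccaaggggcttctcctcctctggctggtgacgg
All 18 genes with the core were higher with PE at an unadjusted p under 0.05 in limma, as were 32 of the 36 members. Genes with windows but no match were of both kinds. Mpeg1 had the second largest difference of the 36, and Fcer1g, Fcgr2b, Gpnmb, Lgals3 and Lyz2 were also higher, whereas Cd163, Timd4 and Folr2 were not. Whether a match goes with the PE difference was not tested.

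The arrays were close in scale, with medians of 6.18 to 6.23 log2 units over all probe sets. Array 3 and, less so, array 7 stood apart: the first principal component (69.5% of the variance) placed array 3 at 53.3 and array 7 at 25.1. Arrays 4 and 8 had scores of -0.41 and -5.00, and the 4 untreated arrays had scores of -20.8 to -16.1. Untreated WT array 2 held the highest mean of the 11 neutrophil markers, 6.19 against 5.16 to 5.42 log2 units in the other 7 arrays. Myh7, the beta myosin heavy chain and a marker of cardiac stress, was the 1 gene past an adjusted p of 0.05 for PE over both genotypes (2.30 log2 units higher, limma adjusted p = 0.00808). Gata4 mRNA differed by -0.0051 (SE 0.07) with PE, and an expression level does not show whether the substitution is present.

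With PE, 32 of the 36 markers were higher at an unadjusted p under 0.05 in limma when the genotypes were averaged, against 9.31% of all genes in that direction, and none was lower, against 7.44%. The markers were chosen with earlier results of these data known, so such shares describe the list and do not test it. None of the 36 passed an adjusted p of 0.05 over all genes (0 of 36, against 0.00502% of all genes), with adjusted p from 0.186 to 0.996. In 26 of the 36, no PE array was as low as the highest untreated one, which held for 6.7% of all genes, and the converse held for 0 of 36, against 6.15%. The difference was above 0 in 33 of 36 (44% of all genes), with a median of 0.84 log2 units and of -0.02 over all genes. Resident markers supplied all 4 members that did not reach an unadjusted p of 0.05. The array means of the 36 markers were 8.54 and 7.99 (S105A) and 8.81 and 8.20 (WT) with PE, against 7.41 and 7.47 (S105A) and 7.58 and 7.82 (WT) untreated. In these bulk samples, more cells of a type and more RNA per cell cannot be told apart.

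The arrays that stood apart carried part of the size of these differences. Within the S105A PE pair 33 of 36 markers were higher in array 7 than in array 8 (median 0.60), and within the WT PE pair 32 were higher in array 3 than in array 4 (median 0.66). Array 3 was the highest of the 8 arrays for 30 markers. Without arrays 3 and 7 the median difference was 0.51 and 27 markers still had no overlap, as did 9.75% of all genes in that direction. In that setting 8 markers passed an adjusted p of 0.05, namely Ms4a7, Mpeg1, Adgre1, Clec4n, Ctss, Cybb, Cd300ld and Laptm5, where 0.687% of all genes passed, and the spread then came from the untreated arrays alone. Without array 4, array 3 stood alone for WT PE. The median difference was then 1.08, with Lyve1 at -0.70 and Timd4 at -0.40. Without array 1, 2, 3, 5, 6, 7 or 8 the median difference was 0.65 to 0.95.

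**Figure D1:**
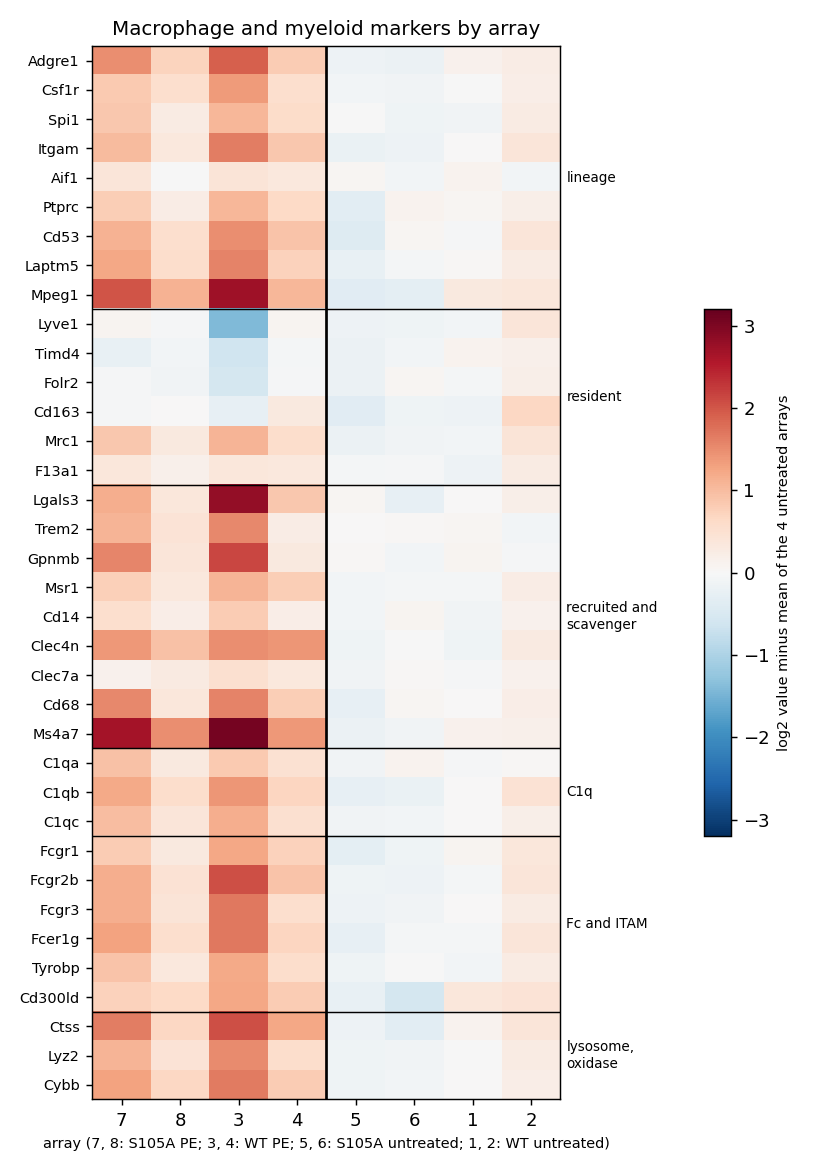
Log2 value of each of the 36 markers (rows, by role) in each array (columns, PE arrays left of untreated arrays), after subtracting the mean of the 4 untreated arrays. Columns 3 and 7 are the darkest red in most rows, and Lyve1, Timd4, Folr2 and Cd163 are not red in the PE columns as the other rows are.

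Lineage markers were all higher with PE: 9 of 9 had an unadjusted p under 0.05, with a median difference of 0.96. Adgre1, an adhesion receptor gene widely used as a mouse macrophage marker, had log2 values of 9.52 and 8.76 (S105A) and 9.94 and 8.84 (WT) with PE, against 7.88 and 7.84 (S105A) and 8.16 and 8.26 (WT) untreated. No PE array fell among the untreated ones, and the difference was 1.23 (SE 0.26, 2.35-fold, limma adjusted p = 0.275). Mpeg1, the gene of the pore-forming protein perforin-2 of phagocytes, had 9.23 and 8.34 (S105A) and 9.93 and 8.29 (WT) with PE, against 6.86 and 6.92 (S105A) and 7.54 and 7.59 (WT) untreated. It was the lineage gene with the widest gap, 1.72 (SE 0.36, 3.30-fold, limma adjusted p = 0.275). Csf1r, the receptor for CSF1 and IL-34, had 9.65 and 9.33 (S105A) and 10.16 and 9.34 (WT) with PE, against 8.70 and 8.70 (S105A) and 8.79 and 9.02 (WT) untreated, a difference of 0.82 (SE 0.18).

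Spi1, the gene of PU.1, differed by 0.70 (SE 0.17) and lay between 7.80 and 8.59 with PE, against 7.38 to 7.79 untreated. Its lowest PE array (8) and highest untreated array (2) were nearly level. The leukocyte-wide genes Ptprc (CD45), Cd53 (a tetraspanin) and Laptm5 (a lysosomal membrane protein of blood cells) differed by 0.68, 1.01 and 1.03, each with no overlap. Itgam, the CD11b integrin chain that neutrophils share, differed by 0.96 (SE 0.22), with PE array 8 at 6.74 just below untreated array 2 at 6.78. Aif1, the gene of the actin-binding protein IBA1, had the smallest lineage difference, 0.28 (SE 0.11, 95% interval 0.03 to 0.53), with overlapping groups between 5.37 and 5.80 with PE and 5.28 and 5.50 untreated.

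Resident markers split. Lyve1, a hyaluronan receptor that lymphatic endothelium also carries, had log2 values of 9.18 and 9.05 (S105A) and 7.68 and 9.18 (WT) with PE, against 8.94 and 8.96 (S105A) and 9.02 and 9.48 (WT) untreated. Array 3, the highest array for most markers, was the lowest here. The difference was -0.33 (SE 0.31, 95% interval -1.06 to 0.41, limma adjusted p = 0.605), and 0.02 without arrays 3 and 7. The mean of 5 lymphatic endothelium genes was 7.73 in array 3 and 7.68 to 7.92 in the other arrays. That mean joins genes of opposite directions. In WT their PE differences ran from -0.56 to 0.84, with 3 below 0 and 2 above. The part of lymphatic vessels in the Lyve1 value was not tested.

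Timd4, a phosphatidylserine receptor for dying cells, had 5.94 and 6.08 (S105A) and 5.54 and 6.10 (WT) with PE, against 5.98 and 6.10 (S105A) and 6.27 and 6.34 (WT) untreated. Both WT PE arrays lay below both untreated WT arrays, and the S105A groups overlapped, with differences of -0.48 (limma unadjusted p = 0.03, adjusted p = 0.419) in WT and -0.03 in S105A. Folr2, a folate receptor, had 8.23 and 8.15 (S105A) and 7.71 and 8.23 (WT) with PE, against 8.09 and 8.33 (S105A) and 8.21 and 8.46 (WT) untreated, a difference of -0.19 (95% interval -0.51 to 0.12). Cd163, the scavenger receptor for haemoglobin bound to haptoglobin, had 7.25 and 7.29 (S105A) and 7.03 and 7.60 (WT) with PE, against 6.92 and 7.15 (S105A) and 7.14 and 7.95 (WT) untreated. Its difference of 0.0028 (95% interval -0.48 to 0.48) took the opposite sign, -0.02, after a further quantile normalization.

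The other 2 genes of this group were higher with PE. Mrc1, the mannose receptor CD206, had 9.53 and 8.97 (S105A) and 9.75 and 9.23 (WT) with PE, against 8.46 and 8.54 (S105A) and 8.57 and 9.07 (WT) untreated, a difference of 0.71 (SE 0.18, limma adjusted p = 0.275), with PE array 8 below untreated array 2. F13a1, the transglutaminase chain of clotting factor XIII, differed by 0.31 (SE 0.11), and the PE range of 8.93 to 9.13 took in untreated array 2 at 9.03. Platelets also contain F13a1 RNA. Of 4 platelet genes measured 3 were below 0, among them Ppbp at -0.67 and Itga2b at -0.25, and 1 was above 0, at 0.29. The part of platelets in the F13a1 value was not tested.

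**Figure D2:**
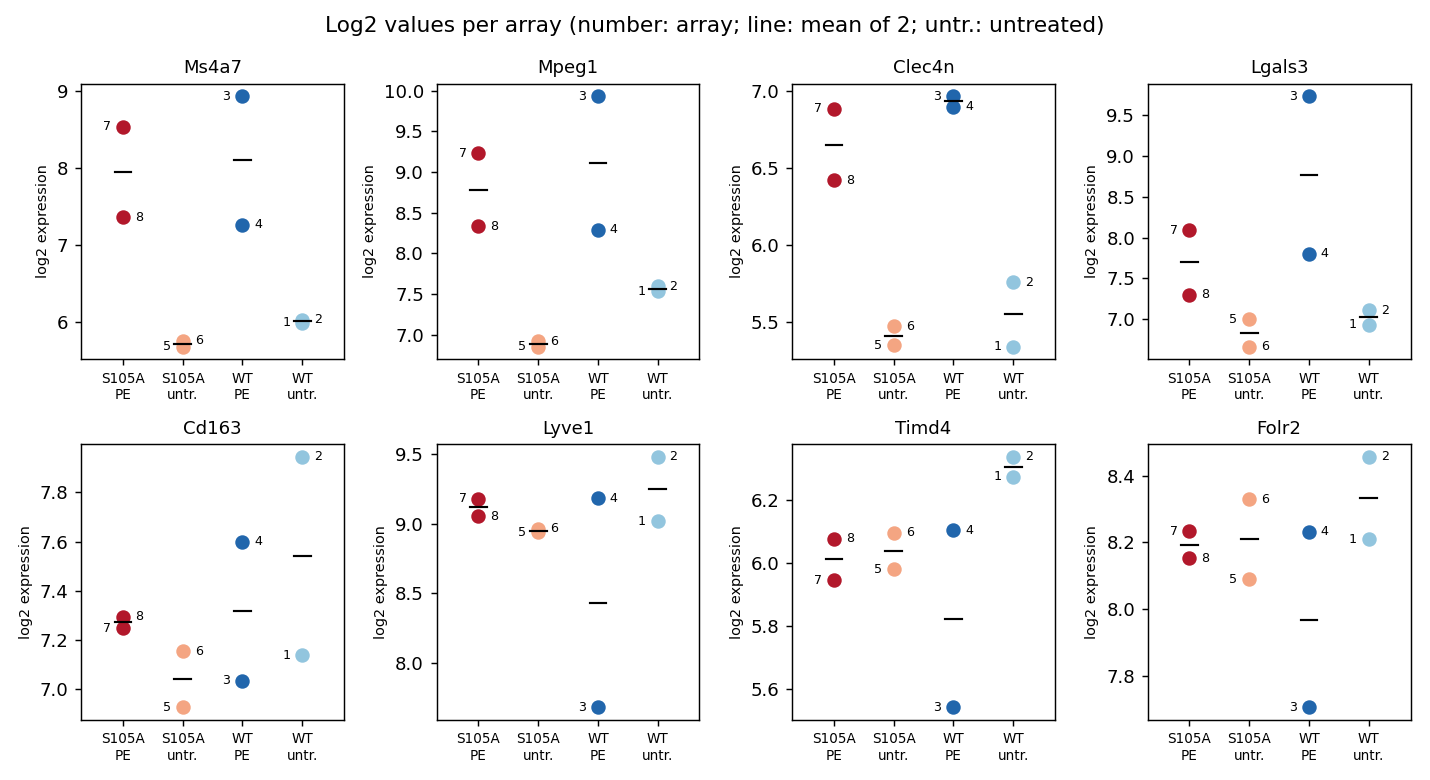
Log2 expression (vertical axes, one scale per gene) of 8 markers in the 4 groups; each point is an array, numbered, and each line the mean of 2. In Ms4a7, Mpeg1, Clec4n and Lgals3 both PE arrays lie above both untreated arrays of the same genotype, whereas in Lyve1, Timd4 and Folr2 array 3 is the lowest point.

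Markers of recruited and scavenging macrophages were all higher with PE, 9 of 9 at an unadjusted p under 0.05 and 8 with no overlap, with a median difference of 1.07. Ms4a7, a tetraspan membrane protein of macrophages, had the largest difference of the 36. Its log2 values were 8.53 and 7.36 (S105A) and 8.93 and 7.26 (WT) with PE, against 5.68 and 5.76 (S105A) and 5.99 and 6.03 (WT) untreated. The 4 untreated arrays were tightly grouped and the PE arrays spread widely, for a difference of 2.16 (SE 0.40, 4.46-fold, limma adjusted p = 0.275). Clec4n, the C-type lectin dectin-2 that binds fungal mannans, had the smallest p of the 36. It had 6.88 and 6.42 (S105A) and 6.96 and 6.90 (WT) with PE, against 5.35 and 5.48 (S105A) and 5.34 and 5.76 (WT) untreated. The difference was 1.31 (SE 0.13, 95% interval 0.99 to 1.62, limma adjusted p = 0.186) and 1.17 without arrays 3 and 7, so this gene leaned little on the arrays that stood apart.

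Lgals3, which encodes galectin-3, depended more on them. It had 8.09 and 7.30 (S105A) and 9.73 and 7.80 (WT) with PE, against 7.00 and 6.67 (S105A) and 6.93 and 7.11 (WT) untreated. The difference was 1.30 (SE 0.41) with all arrays and 0.62 without arrays 3 and 7. Markers of lipid-laden macrophages followed the same course. Trem2, a lipid-sensing receptor, differed by 0.82 and by 0.34 without those arrays, and Gpnmb, a glycoprotein of lysosome-rich macrophages, by 1.10 and 0.35. Gpnmb values were 7.86 and 6.68 (S105A) and 8.42 and 6.59 (WT) with PE, against 6.32 and 6.20 (S105A) and 6.38 and 6.25 (WT) untreated, so arrays 4 and 8 were only slightly above the untreated range.

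Msr1, the class A scavenger receptor for modified lipoproteins, differed by 0.74 (SE 0.13) and lay between 7.21 and 7.97 with PE, against 6.77 to 7.10 untreated. Cd68, a lysosomal glycoprotein of phagocytes, differed by 1.07 (SE 0.29), with 7.85 to 9.08 in the PE arrays, against 7.22 to 7.70 untreated. Cd14, the co-receptor for bacterial lipopolysaccharide, differed by 0.45 (SE 0.15), also with no overlap. Clec7a, the beta-glucan receptor dectin-1, differed by 0.32 (SE 0.08), with PE array 7 and untreated array 2 level at 5.84.

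C1q is the recognition molecule of the classical complement pathway and is assembled from 3 chains, whose genes all lie on chromosome 4. C1qa, C1qb and C1qc were each higher with PE without overlap, by 0.65 (SE 0.16), 0.97 (SE 0.21) and 0.76 (SE 0.18), and all 3 had a limma adjusted p of 0.275. C1qb had 11.00 and 10.35 (S105A) and 11.20 and 10.47 (WT) with PE, against 9.52 and 9.56 (S105A) and 9.81 and 10.25 (WT) untreated. The highest untreated array (2) was close to the lowest PE array (8).

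Fc receptors bind antibody-coated particles, and the activating ones signal through adaptors with an ITAM, a tyrosine motif that recruits the kinase SYK. All 6 genes of this group had an unadjusted p under 0.05, with a median difference of 0.91. The adaptor genes Fcer1g and Tyrobp (DAP12) differed by 1.05 (SE 0.26) and 0.75 (SE 0.19), both with no overlap. Fcer1g had 9.34 and 8.60 (S105A) and 9.74 and 8.73 (WT) with PE, against 7.80 and 7.99 (S105A) and 8.00 and 8.44 (WT) untreated.

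The activating receptors Fcgr1 and Fcgr3 differed by 0.77 (SE 0.16) and 0.96 (SE 0.27), and the inhibitory receptor Fcgr2b by 1.15 (SE 0.28), and of the 6 genes only Fcgr1 overlapped, with 6.58 in PE array 8 and 6.62 in untreated array 2. Activating and inhibitory receptors were thus both higher with PE. The extracellular parts of Fcgr2b and Fcgr3 are alike, so their probe sets could share signal. For Fcgr2b the values were 9.02 and 8.32 (S105A) and 9.91 and 8.76 (WT) with PE, against 7.70 and 7.70 (S105A) and 7.78 and 8.23 (WT) untreated. Cd300ld, a myeloid receptor of the CD300 family, had 8.15 and 8.06 (S105A) and 8.64 and 8.22 (WT) with PE, against 7.17 and 6.85 (S105A) and 7.77 and 7.84 (WT) untreated. Its difference was 0.86 (SE 0.12, limma adjusted p = 0.266), and near relatives in the same family could be read by the same probes.

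The lysosomal and oxidase genes were higher with PE in all 3 cases. Ctss, the protease cathepsin S that trims the invariant chain of MHC class II, had 9.04 and 8.08 (S105A) and 9.49 and 8.65 (WT) with PE, against 7.25 and 7.08 (S105A) and 7.52 and 7.81 (WT) untreated, a difference of 1.40 (SE 0.26, 2.64-fold). Cybb, the catalytic subunit of the phagocyte NADPH oxidase, differed by 1.10 (SE 0.21), and lay between 9.05 and 10.05 with PE, against 8.25 to 8.62 untreated. Lyz2, the myeloid lysozyme, differed by 0.90 (SE 0.23), and its relative Lyz1 is similar enough that the probes may not tell them apart. None of the 3 overlapped.

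By genotype, PE gave similar sizes. In S105A hearts 25 of 36 markers were higher at an unadjusted p under 0.05 (3.09% of all genes) and 0 lower (2.77%; 5.86% in either direction). In WT hearts 29 were higher (5.99% of all genes), and Timd4 was the 1 lower (5.76%; 11.7% in either direction). No marker passed an adjusted p of 0.05 in either genotype, where 0% of all genes in S105A and 0.00502% in WT did. The medians were 0.825 in S105A and 0.85 in WT, and the difference was above 0 in 34 markers in S105A (43.6% of all genes) and 32 in WT (48.9%). The PE pair was wholly above the untreated pair in 33 markers in S105A (20.2% of all genes) and 32 in WT (22.7%), and wholly below it in 0 in S105A (25.2%) and 1 in WT (23.5%).

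These counts leaned on single arrays. At an unadjusted p under 0.05 in either direction, the 25 markers of S105A became 8 without array 5 (2.79% of all genes), 13 without array 6 (3.19%) and 4 without array 7 (1.9%). The 30 of WT became 8 without array 1 (5.45% of all genes), 20 without array 2 (4.76%) and 12 without array 3 (4.86%). Without array 4, array 3 stood alone for WT PE. The WT median was then 1.22, with Lyve1 at -1.57, Timd4 at -0.76 and Folr2 at -0.63. Without arrays 3 and 7 the medians were 0.47 in S105A and 0.49 in WT, and Adgre1, Mpeg1 and Ms4a7 passed an adjusted p of 0.05 in S105A (0.15% of all genes) and Ms4a7 alone of the 36 in WT (0.291%).

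**Figure D3:**
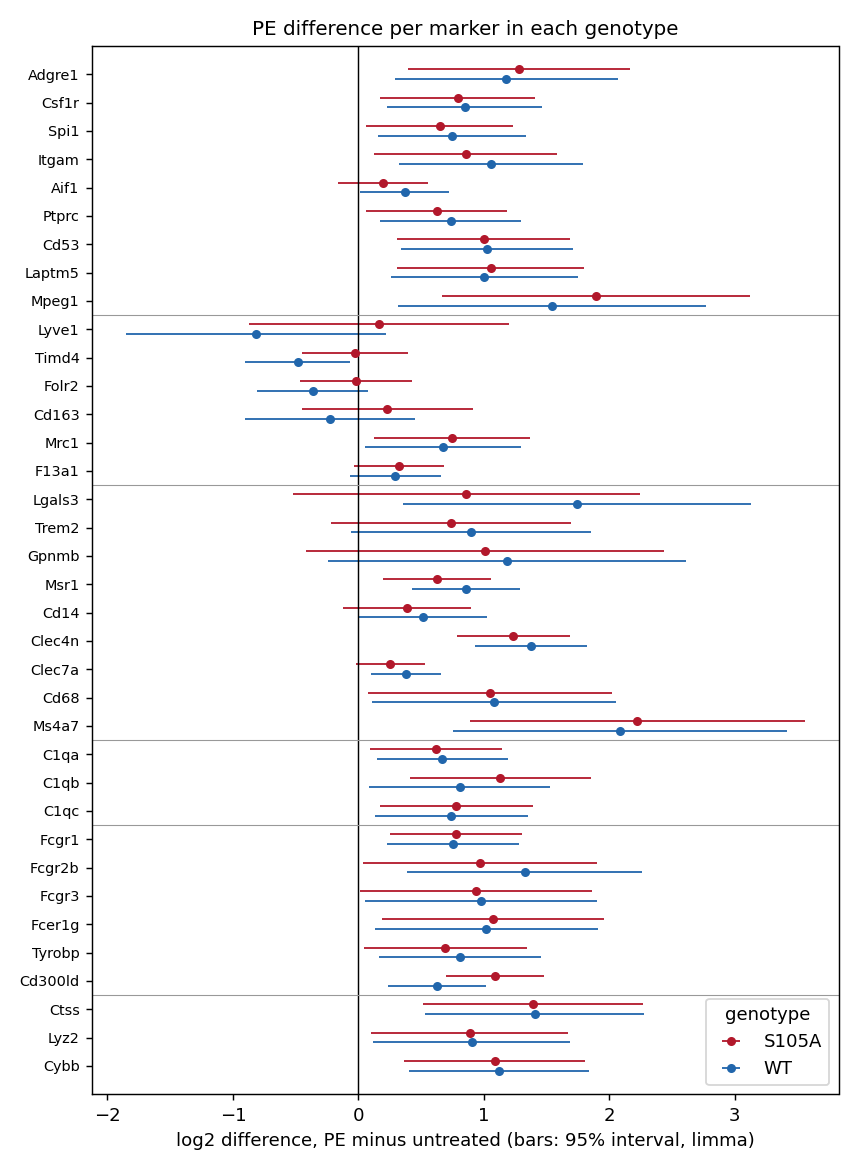
Log2 difference between PE and untreated hearts for each marker (rows, by role) in S105A (red, upper) and WT (blue, lower); points are estimates and bars 95% limma intervals. Most intervals lie to the right of 0 in both genotypes, and those of Lyve1, Folr2, Cd163, F13a1, Trem2 and Gpnmb include 0 in both.

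The difference in PE effect between the genotypes was tested directly. None of the 36 markers had an unadjusted p under 0.05 by limma in this interaction, against 2.42% of all genes (0.903% higher and 1.52% lower), and none passed after adjustment, nor did any gene. The median was -0.03, with 21 markers below 0 and 15 above (47.5% of all genes were above). The extremes were Lyve1 at 0.98 (SE 0.61, 95% interval -0.48 to 2.44) and Lgals3 at -0.88 (SE 0.82, 95% interval -2.84 to 1.07), both of them genes with a value far from its partner in array 3. Without array 3 the Lyve1 value was 0.23. Single arrays moved the count below 0 both ways: it was 4 without array 3 or array 8 (medians 0.27 and 0.30), 30 without array 4 and 31 without array 7 (medians -0.38 and -0.33). Intervals of this width do not show that the genotypes responded alike. For Ms4a7 the interval ran from -1.75 to 2.02 around 0.14.

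Without PE, most markers were slightly lower in S105A than in WT hearts. The difference was above 0 in 2 of 36 (50.9% of all genes), with a median of -0.24 (0.0033 over all genes). Cd300ld was the 1 marker with an unadjusted p under 0.05, at -0.80 (SE 0.16, limma unadjusted p = 0.00206, adjusted p = 0.962), where 2.53% of all genes were lower at that level, 2.43% higher and 4.96% either. No gene passed after adjustment (0%). Both S105A arrays lay below both WT arrays in 19 markers, which 22.7% of all genes did, and above them in 0, against 21.8%. Cd300ld had 7.17 and 6.85 in S105A, against 7.77 and 7.84 in WT, and Mpeg1 had 6.86 and 6.92 in S105A, against 7.54 and 7.59 in WT. The WT pair itself differed: 33 of 36 markers were higher in array 2, the array with the high neutrophil markers, than in array 1. Without array 2 the median was -0.11 and 28 of 36 differences were below 0, and without array 1 the groups of 32 markers did not overlap (35.7% of all genes were lower in this way). In a fit of only these 4 arrays 13 markers had an unadjusted p under 0.05, as did 12.4% of all genes.

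With PE, S105A hearts were below WT hearts for 33 of 36 markers and above them for 3 (46.9% of all genes), with a median difference of -0.26 (-0.0092 over all genes). None had an unadjusted p under 0.05 in limma (1.43% of all genes were lower at that level, 1.25% higher and 2.68% either), and 0% of all genes passed after adjustment. In 4 markers, Msr1, Clec4n, Clec7a and Cd300ld, both S105A arrays lay below both WT arrays, which 13% of all genes did, and in 0 above them, against 10.5%. The direction rested on single arrays: without array 3, 18 of 36 were below 0 and the median was 0.0004, and without array 8, 13 were below 0 and the median was 0.04. Without array 4, 30 markers were lower with no overlap (36.7% of all genes) and 23 had an unadjusted p under 0.05 (20.6% of all genes). That setting left array 3 alone for WT PE, and the differences were 1.43 for Lyve1 and -2.03 for Lgals3. Without array 7, 27 were lower with no overlap (31% of all genes) and 7 had an unadjusted p under 0.05 (3.26%).

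**Figure D4:**
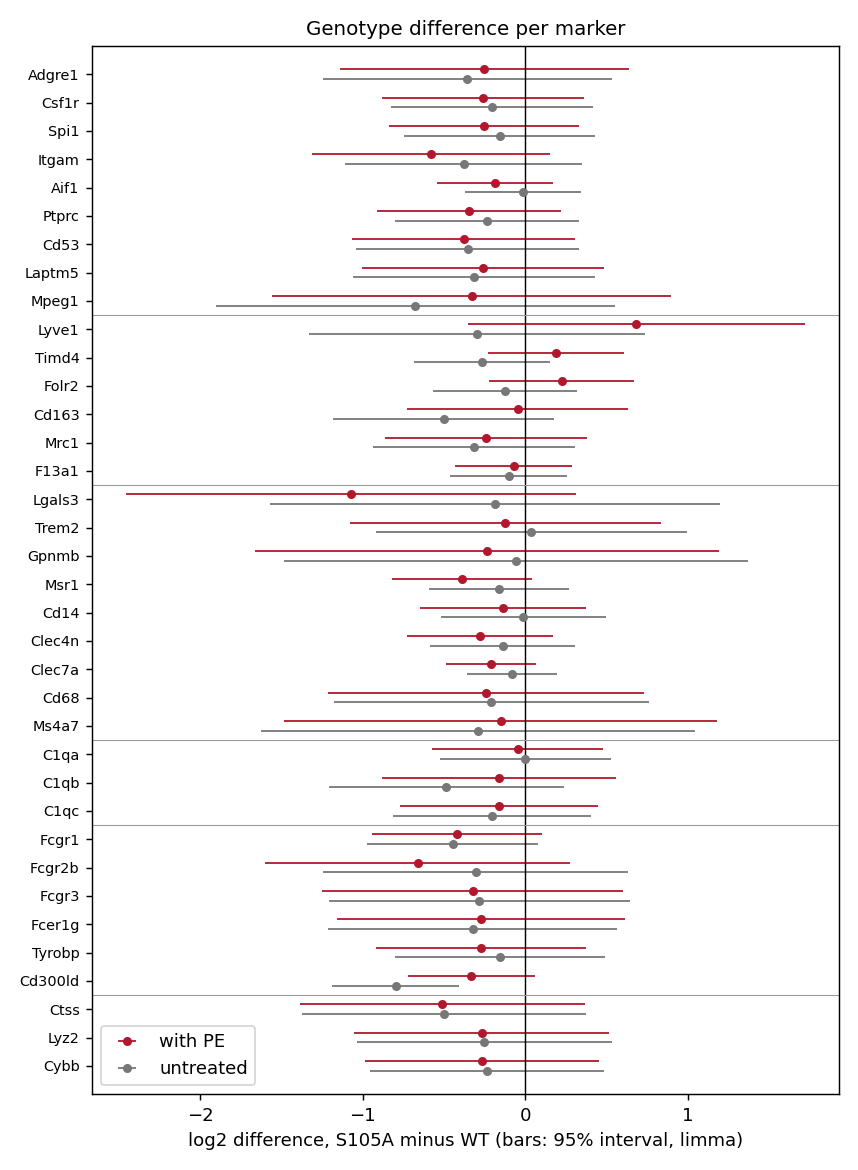
Log2 difference between S105A and WT hearts for each marker, with PE (red, upper) and untreated (grey, lower); bars are 95% limma intervals. Most points lie left of 0 and nearly all intervals cross it; Cd300ld in untreated hearts is the interval that does not.

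Other genes of the same cells were read from lists of known function. For PE averaged over genotypes, 9.31% of all genes were higher at an unadjusted p under 0.05, 7.44% lower and 16.7% either. The counts in these lists and in the cell type lists below stand beside those shares. Of the ligands of CSF1R, Csf1 had 8.99 and 9.22 (S105A) and 8.57 and 8.86 (WT) with PE, against 8.74 and 8.67 (S105A) and 8.87 and 8.74 (WT) untreated, a difference of 0.15 (95% interval -0.06 to 0.37). By genotype the Csf1 difference was 0.40 in S105A and -0.09 in WT, and the difference between these was 0.49 (SE 0.18, limma unadjusted p = 0.0312, adjusted p = 0.9998). Il34, the other CSF1R ligand, differed by 0.19 (95% interval -0.01 to 0.39). Of 10 growth factor and receptor genes, 2 were higher and 1 lower at an unadjusted p under 0.05. Csf2rb, the shared beta chain of the receptors for GM-CSF, IL-3 and IL-5, differed by 0.98 (SE 0.18), Csf2ra by 0.34 and Kitl, the stem cell factor, by -0.25. Csf3r, the neutrophil growth factor receptor, differed by 0.37 (95% interval -0.17 to 0.91) with its highest value in untreated array 2.

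Of 8 measured monocyte genes 3 were higher at an unadjusted p under 0.05 and 0 lower. Differences were above 0 in 6 and below 0 in 2, with a median of 0.42, and of 0.29 without arrays 3 and 7. The 2 probe sets annotated jointly with Ly6c2, a gene of the monocyte list, and Ly6c1 differed by -0.30 and -0.27. Ccr2, the receptor gene that marks recruited monocytes, had 7.41 and 6.80 (S105A) and 8.52 and 7.27 (WT) with PE, against 5.92 and 5.90 (S105A) and 5.95 and 6.04 (WT) untreated, a difference of 1.54 (SE 0.27, 2.92-fold, limma adjusted p = 0.275). The untreated arrays spanned little and every PE array lay well above them. Cx3cr1, the fractalkine receptor that resident and patrolling cells carry, differed by 0.79 (SE 0.24) and the nuclear receptor gene Nr4a1 by 0.72 (SE 0.17). Both are expressed outside monocytes as well.

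Uptake receptors beyond the markers were higher in 11 of 16 cases at an unadjusted p under 0.05 and lower in none, with a median of 0.45. Stab1, a scavenger receptor of macrophages and sinusoidal endothelium, differed by 0.79, the lipoprotein receptor gene Lrp1 by 0.72 and Scarb1, the HDL receptor, by 0.27. Signalling genes downstream of ITAM receptors were higher in 9 of 12 (median 0.41). Among them were the adaptor Lcp2 (SLP-76) at 0.54 (SE 0.10), the inositol phosphatase Inpp5d (SHIP1) at 0.64 and the cortactin-like Hcls1 at 0.41. All 4 measured partners of Cybb in the NADPH oxidase were higher, including Ncf1 (p47phox) at 0.56, Ncf4 (p40phox) at 0.48 and the GTPase gene Rac2 at 0.37. The medians of these 3 lists, 0.45, 0.41 and 0.43, were below the marker median of 0.84, and none of their genes passed an adjusted p of 0.05. Without arrays 3 and 7 the 3 medians were 0.22, 0.24 and 0.28.

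Lysosomal genes, which all cells express, were higher in 12 of 17 and lower in none (median 0.51, and 0.22 without arrays 3 and 7). Ctsc, the protease that activates granule enzymes, differed by 0.66, the asparaginyl endopeptidase Lgmn by 0.72 and the tetraspanin Cd63 by 0.71. Of 14 other complement genes 9 were higher and none lower at an unadjusted p under 0.05. The anaphylatoxin receptor gene C3ar1 had 10.31 and 9.57 (S105A) and 10.70 and 9.77 (WT) with PE, against 8.51 and 8.68 (S105A) and 8.82 and 8.94 (WT) untreated, a difference of 1.35 (SE 0.24). Properdin (Cfp) differed by 0.77 and the beta-2 integrin chain Itgb2, the partner of Itgam, by 0.73.

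Of 9 genes of antigen presentation 3 were higher at that level and none lower (median 0.17). The costimulatory ligand genes Cd80 and Cd86 differed by 0.94 (SE 0.22) and 0.23, and H2-DMa, which loads peptides on MHC class II, by 0.29. Of 11 transcription factors of myeloid cells 7 were higher and 2 lower, with Irf5 at 0.65, Ikzf1 (IKAROS) at 0.38 and Cebpa at 0.35. Inflammatory genes had a median of -0.02, and 3 of 10 were higher, namely Ptgs2 (COX-2) at 0.91, Il6 at 0.44 and Il18 at 0.41. Il6 and Il18 lay near the lower end of the array's range, below 5.6 log2 units in every array.

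Repair-associated genes went both ways, with 2 higher and 2 lower of 9. Retnla, a secreted product of IL-4-activated macrophages, had 4.05 and 4.64 (S105A) and 3.64 and 4.37 (WT) with PE, against 5.48 and 6.08 (S105A) and 5.00 and 4.42 (WT) untreated, a difference of -1.07 (SE 0.25). Igf1 differed by 1.02 (SE 0.33) and the IL-4 receptor chain Il4ra by 0.79 (SE 0.19). Genes of dividing cells were higher in 6 of 7 (median 0.95, and 0.51 without arrays 3 and 7). Mki67 differed by 1.65, Top2a by 1.58 and Ube2c by 0.86, and which cells divided was not tested.

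**Figure D5:**
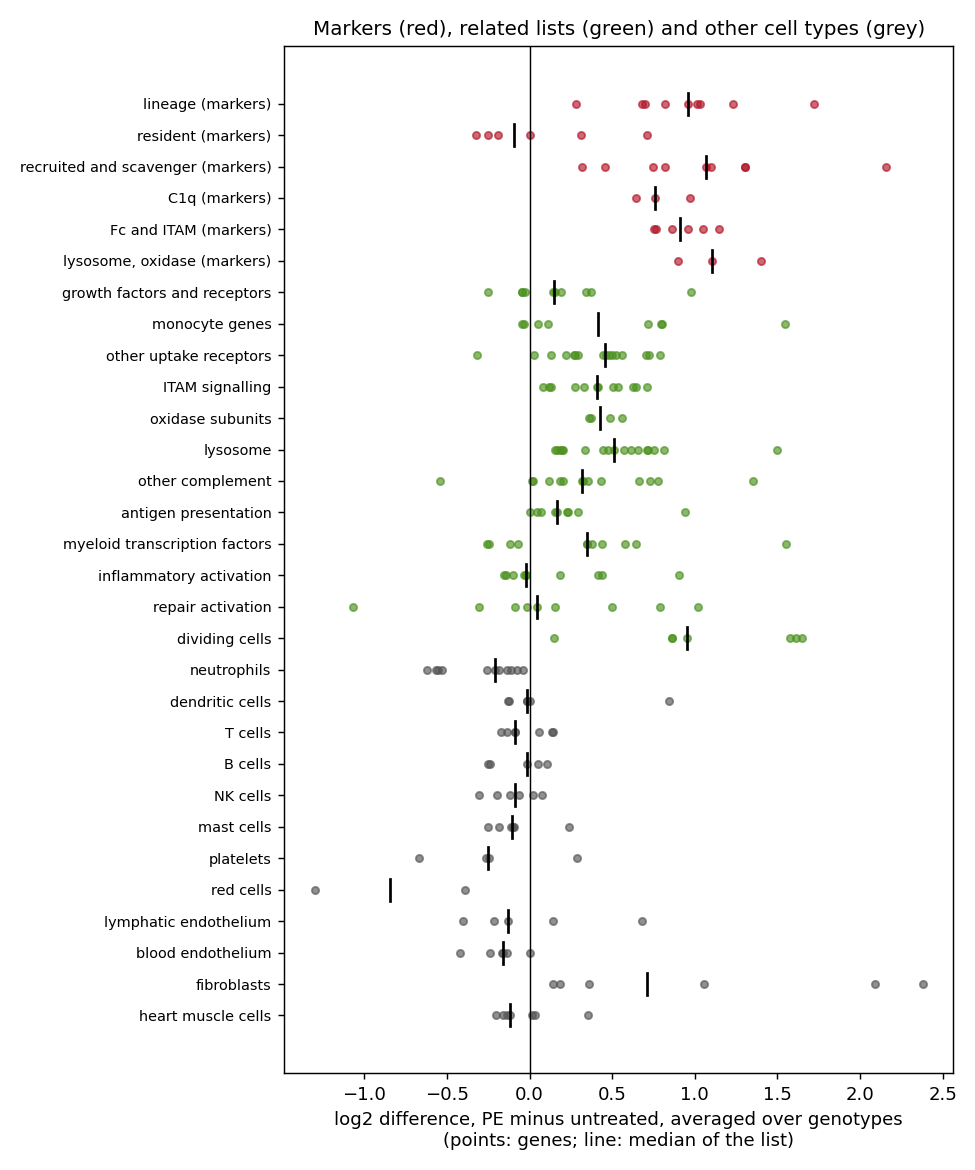
Log2 difference between PE and untreated hearts, averaged over genotypes (horizontal axis), for every measured gene of the 6 marker groups (red), of related lists (green) and of other cell types (grey); black lines are list medians. Marker groups other than the resident one lie to the right of 0, and markers of lymphocytes, mast cells and neutrophils lie around or left of it.

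Blood cells other than macrophages gave few differences in the same direction. The lists lay low, with array means of 4.82 to 5.22 for NK cells, 5.27 to 5.50 for B cells and 5.42 to 5.65 for T cells. Those of dendritic and mast cells were 5.57 to 5.78 and 5.72 to 5.98, where the array medians were 6.18 to 6.23. Whether genes at such levels could show a rise was not tested. Of 11 neutrophil genes none had an unadjusted p under 0.05 and all differences were below 0 (median -0.21), with S100a8 at -0.56 and Mpo at -0.14. Their mean was 6.19 in untreated array 2, against 5.29 to 5.39 in the other untreated arrays and 5.16 to 5.42 with PE. T cell genes had 1 of 7 past that level, Cd5 at 0.14, with Cd8a at -0.14, and B cell genes had 0 of 5, with Cd79a at -0.24 and Ms4a1 at -0.25. NK cell genes had 2 of 6 lower, Gzma at -0.30 and Prf1 at -0.20. Mast cell genes had 1 of 6 lower, Mcpt4 at -0.25, with Cpa3 at -0.19. The dendritic cell list had 1 of 6 higher, Cd209a (DC-SIGN family) at 0.85 (SE 0.17), with Siglech at -0.12.

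Among cells of the heart itself, 4 of 6 fibroblast genes were higher, with Col1a1 at 2.38 (SE 0.45) and Col3a1 at 2.09 (SE 0.36). The array means of the 6 fibroblast genes were 10.56 and 9.89 (S105A) and 10.86 and 9.97 (WT) with PE, against 9.23 and 9.26 (S105A) and 9.26 and 9.38 (WT) untreated, so arrays 3 and 7 were the highest here as in the myeloid markers. Blood vessel endothelium had 1 of 6 lower, Tie1 at -0.24, with Kdr at -0.42. Lymphatic endothelium had 1 of 5 higher, Pdpn at 0.68, which fibroblasts and macrophages can also express, with Reln at -0.22. Heart muscle genes had 1 of 7 higher, Mybpc3 at 0.36, with Ryr2 at -0.12. Platelet genes had 2 of 4 lower, given above, and both red cell genes measured were lower at an unadjusted p under 0.05, Alas2 at -1.30 (SE 0.14) and Slc4a1 at -0.39. The part of these other cells in the marker values was not tested.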

How the data were processed

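RNA from snap-frozen hearts was labelled with biotin and hybridized, 1 array per animal, per the labels' protocols. Nothing says that the 2 animals of a group came from separate litters or days. The authors deposited log2 expression values made by RMA, as the submitters' processing notes say. RMA subtracts background, equalises the arrays' distributions and combines probes into probe sets, which would take out any shift common to the majority of genes. The version of RMA and how probe sets were defined: not given in the sources used here. No detection calls were used, so the floor of low values is unknown, and the number of arrays limits the precision.

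Of 35557 probe sets, 21789 had 1 gene symbol, 1621 several and 12147 none in the platform annotation. The probe set with the highest mean stood for a gene, and 19855 of the 19938 genes matched the RefSeq gene table through Entrez identifiers. Limma 3.58.1 in R 4.3.3 was fitted to all 19938 genes and 8 arrays, with 1 coefficient per group, 4 residual degrees of freedom and no covariate. P-values are two-sided, and adjusted p-values are Benjamini-Hochberg over all genes, with a threshold of 0.05. Groups were said not to overlap where every array of one lay beyond every array of the other. Lists were described by counts and medians, with no set test. The genes named were all members, up to 3 per related list and 2 per cell type list by the smallest p for PE, and Csf1, Il34, Ccr2, Csf3r, Myh7 and Gata4. Members and lists were chosen with earlier results of these data known. The code was tested on simulated data. Figures were drawn with matplotlib 3.10.9.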

Additional observations from a re-analysis of the deposited data

How the results depend on the processing

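Alternatives were to drop the 40% of genes lowest in level, to average probe sets per gene, to adjust over all probe sets, to quantile-normalize again, to use a trended, robust variance or array weights, to fit just the arrays compared, to omit the interaction, and to leave out arrays 3 and 7 or single arrays. The non-overlap counts under other settings were added after seeing the data. For PE averaged over genotypes, the markers past an adjusted p of 0.05 were 0 in these settings, except 8 without arrays 3 and 7 (median 0.51) and 32 without array 4, so single arrays gave 0 to 32. In WT the count was 1 without arrays 3 and 7 and 0 to 29 without single arrays, and in S105A it was 3 without arrays 3 and 7. At an unadjusted p under 0.05, omitting single arrays gave 8 to 33 markers for PE in WT (4.76% to 30.9% of all genes). In S105A it gave 4 to 29 (1.9% to 13.4% of all genes). In both genotypes the highest count came where the share of all genes was also highest. For S105A against WT without PE, 1 marker had an unadjusted p under 0.05 (4.96% of all genes). This became 3 with array weights (11.4%) and 13 in a fit of the arrays compared (12.4%). Without single arrays the median difference was -0.34 to -0.11, and the non-overlap count was 19 to 32 (22.7% to 36.9% of all genes). For S105A against WT with PE, 6 markers had an unadjusted p under 0.05 without arrays 3 and 7 (4.8% of all genes). Without single arrays this number was 0 to 23 (1.87% to 20.6% of all genes). The adjusted count was then 0 to 2, and the non-overlap count was 4 to 30 without single arrays (13% to 36.7% of all genes). Without arrays 3 and 7 the non-overlap count was 31, where 51.7% of all genes were lower in this way. That setting sets array 8 against array 4 alone, so its count gives only the sign of their difference and does not show separate groups. For the difference in PE effects the median was 0.05 without arrays 3 and 7 and -0.38 to 0.30 without single arrays. A lone remaining array is assumed to vary like the other groups, and the causes were not tested. No paired analysis was possible because the groups share no replicate number.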

Other observations

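Relatives of the markers, chosen after their values were seen, were set beside them by gene family. Of all genes, 9.31% were higher and 7.44% lower with PE at an unadjusted p under 0.05. Of 19 measured Ms4a genes 6 were higher and 1 lower with PE at an unadjusted p under 0.05, and the family's median difference was -0.01. Ms4a4a, Ms4a6b, Ms4a6c and Ms4a6d differed by 1.29, 1.28, 1.25 and 1.54 between PE and untreated hearts, the B cell member Ms4a1 by -0.25, and Ms4a4b and Ms4a4d by 0.06 and -0.18. Ms4a6d had 8.95 and 7.69 (S105A) and 9.66 and 8.81 (WT) with PE, against 6.81 and 6.92 (S105A) and 7.15 and 8.05 (WT) untreated. Untreated array 2 was above PE array 8 in Ms4a6d, and likewise in Ms4a6b and Ms4a6c, whereas Ms4a7 was at 6.03 in array 2 and 5.99 in array 1.

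Of 11 measured C-type lectins of the Clec4 family 5 were higher and 0 lower (median 0.12). Clec4a1, Clec4a2 and Clec4a3 differed by 0.98, 0.71 and 0.86, each with no overlap, and Clec4d by 0.86. Clec4e, the receptor Mincle for mycobacterial glycolipid, differed by 0.12 and had its highest value, 5.16, in untreated array 2. Fcgr4, an activating Fc receptor not among the markers, had 6.89 and 6.02 (S105A) and 7.30 and 6.55 (WT) with PE, against 5.16 and 5.53 (S105A) and 5.85 and 5.97 (WT) untreated. Of 8 CD300 family genes 4 were higher and 0 lower (median 0.19). Cd300c2 differed by 1.04 and Cd300lg, which endothelium expresses, by -0.39, and 2 probe sets annotated jointly with Cd300ld3, Cd300ld4 and Cd300ld5 differed by 0.77 and 0.72.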
